A study of Mus musculus with 5 samples.

Results

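The regions described here are the H3K9me3 CUT&Tag regions at 9 genes of the heat shock response and the cell cycle, namely Hspa8, Dnajb9, Wee1, Fzr1, Tob1, Cdk4, Cdkn1a, Cdkn2a and Nfya. A region belonged to the set if it lay within 5 kb of the GRCm38 span of 1 of these genes, which gave 13 of the 46409 regions in the deposited table. The genes were selected on the sgPrdm12 over sgNTC fold changes of these same libraries, mostly for low values, so the values of that contrast at the 13 regions are a description, with no test.

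The sgPrdm12 group held 2 libraries of spleen CD8+ T cells (labelled Prdm12-ko) from mice with the OT-I T cell receptor and a Cas9 transgene, electroporated with 300 pmol of a Prdm12 guide complexed with 300 pmol of Cas9 protein. The sgNTC group held 2 libraries of the same kind of cells (labelled Prdm12-wt) that received a non-targeting guide in the same amounts, and cells recovered for 72 h. Cells of both groups therefore carried the receptor and the Cas9 transgene and were electroporated, and the edited cells were a bulk population and not a clone. The sources used here give neither the age of the mice nor whether libraries came from separate mice, so the spread between libraries may be technical.

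H3K9me3 is a histone modification of silent chromatin, found mainly over repeats, gene-poor stretches and families of clustered genes. The starts of widely used genes, such as chaperone and cell cycle genes, normally lie in CpG-rich open chromatin that is poor in this mark. In CUT&Tag, an antibody tethers a Tn5 transposase that cuts the DNA around it, and reads are counted per region. In cell populations a lower count can come, among other sources, from fewer cells with the mark or from less of it per cell. These cannot be told apart here. Reads cut without the mark were not measured, since the IgG library was not analysed.

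Library totals over all regions were 2353807 and 1396201 reads in sgPrdm12-1 and sgPrdm12-2, against 843673 and 1060646 in sgNTC-1 and sgNTC-2. By their labels, sgPrdm12-1 and sgNTC-1 formed batch 1, and sgPrdm12-2 and sgNTC-2 formed batch 2. Prdm12 itself had 4 regions within 5 kb, with 303 and 197 reads in sgPrdm12 and 64 and 51 in sgNTC, which does not measure editing. Of 5 CD8 T cell marker genes, 0 had a region within 5 kb, so the label of the cells could not be checked in these data. Levels below are counts per 1e6 reads on the TMM scale (CPM), which centres the comparison on the typical region, and log2 fold changes are sgPrdm12 over sgNTC from the edgeR fit on the 37390 regions that passed the filter on low counts (tested regions).

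Of the 9 genes, 7 had a single region. For 5 of these it lay at a listed gene start, and for Hspa8 and Wee1, whose strand is not in the tables used, it lay at the lower end of the span; the 7 are called regions at gene starts with that limit. The stretches of DNA before 4 of the starts overlapped by a region are shown first, since these regions overlap promoter windows. Regions and stretches overlap only in part, with 100 shared bases at Fzr1, 126 at Cdkn2a and 175 at Dnajb9. The Cdk4 region covers nearly all of its stretch. Each holds the 250 bases before the start in the RefSeq promoter table (GRCm38.p6), and capitals mark CCAAT or its reverse complement ATTGG, the box bound by NF-Y, and CACGTG, an E-box bound by factors of the Myc family.
Cdk4, chr10:127063285-127063534, plus strand: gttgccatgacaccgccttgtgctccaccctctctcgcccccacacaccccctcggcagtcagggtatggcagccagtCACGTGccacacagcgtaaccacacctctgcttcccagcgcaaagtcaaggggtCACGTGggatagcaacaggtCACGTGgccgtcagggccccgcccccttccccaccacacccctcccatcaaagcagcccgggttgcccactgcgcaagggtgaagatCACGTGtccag
Fzr1, chr10:81378371-81378620, minus strand: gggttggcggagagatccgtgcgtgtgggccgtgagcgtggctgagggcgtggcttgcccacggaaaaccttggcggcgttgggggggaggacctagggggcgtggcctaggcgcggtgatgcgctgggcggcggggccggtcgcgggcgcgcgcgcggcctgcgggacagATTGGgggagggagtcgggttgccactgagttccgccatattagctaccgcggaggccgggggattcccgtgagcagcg
Dnajb9, chr12:44210069-44210318, minus strand: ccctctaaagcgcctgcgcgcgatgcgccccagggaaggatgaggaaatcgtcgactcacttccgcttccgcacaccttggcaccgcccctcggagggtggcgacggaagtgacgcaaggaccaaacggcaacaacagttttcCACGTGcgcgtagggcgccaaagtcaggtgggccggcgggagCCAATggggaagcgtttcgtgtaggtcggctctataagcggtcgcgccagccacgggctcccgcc
Cdkn2a, inner start, chr4:89282193-89282442, minus strand: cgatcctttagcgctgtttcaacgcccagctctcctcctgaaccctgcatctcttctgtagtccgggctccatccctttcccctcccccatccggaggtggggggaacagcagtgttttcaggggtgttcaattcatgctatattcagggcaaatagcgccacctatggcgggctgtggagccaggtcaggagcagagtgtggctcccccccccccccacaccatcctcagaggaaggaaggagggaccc

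The Cdk4 stretch held 4 copies of CACGTG and 13 CpG dinucleotides. Among 21263 protein-coding promoters, 4 held as many as 4 copies and 6.63% held at least 1, a motif searched after this sequence had been seen. The Fzr1 and Dnajb9 stretches held 31 and 29 CpG and 1 CCAAT box each, and Dnajb9 also held 1 CACGTG. By their coordinates, both CCAAT boxes lay between the region and the start, outside the region. The Cdkn2a stretch held 7 CpG and neither motif. A match is a description of the letters and not a binding site.

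The promoter table matched 7 of the 9 genes with 11 starts, and 7 of these windows, from 6 genes, were overlapped by a region. Searched on both strands, CCAAT was in 3 of the 7 overlapped windows, where 35.4% of all protein-coding promoters and 43.8% of the 576 promoters overlapped by any deposited region held it. The GC box GGGCGG was in 6 of 7, where 42.6% of all promoters and 63.0% of the overlapped ones held it. The heat shock element letters GAANNTTC and TTCNNGAA were in 0 of 7 (6.17% and 6.48% of all promoters, 4.34% and 5.21% of the overlapped ones). TTTGAA, the letters of the cell cycle homology region, was in 0 of 7 as well (14.5% of all, 9.72% of the overlapped ones). The 7 windows had a median of 65.2% GC and 22 CpG, against 61.6% and 16 over the overlapped promoters and 55.6% and 10 over all promoters. By the criterion of at least 50% GC and a CpG ratio of observed to expected of at least 0.6, 5 of the 7 were CpG-rich, Cdk4 and Cdkn2a being the exceptions, against 59.0% of the overlapped promoters and 41.5% of all. With 7 windows, these counts are a description. They are counts over whole windows, of which a region may cover only a part.

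The regions at gene starts lay mostly just before the start and were narrow. Coordinates are printed as the table lists them. The Cdk4 region (chromosome 10, 127063288 to 127063582, 294 bp wide) and the Nfya region (chromosome 17, 48409808 to 48410074, 266 bp) spanned the start. The Nfya region also covers the start of the span of its neighbour Oard1, and belongs to both genes alike. Marchf9 and Tspan31 lie within 5 kb of the Cdk4 region. The Dnajb9 region (chromosome 12, 44210144 to 44210356, 212 bp) ended 76 bp before the start and the Fzr1 region (chromosome 10, 81378521 to 81378802, 281 bp) 151 bp before it. The Tob1 region (chromosome 11, 94211132 to 94211394, 262 bp) lay 60 bp before the listed start and 1290 bp inside the span. The outer end of that span is not a listed start.

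Hspa8 and Wee1 are not in the promoter table, and their distance was taken to the lower end of the span. The Hspa8 region (chromosome 9, 40800845 to 40801277, 432 bp) reached that end, and the Wee1 region (chromosome 7, 110121756 to 110121990, 234 bp) lay 69 bp from it. The widths of the 13 regions were between 196 and 432 bp with a median of 266 bp, against a median of 282 bp over all regions.

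**Figure D1:**
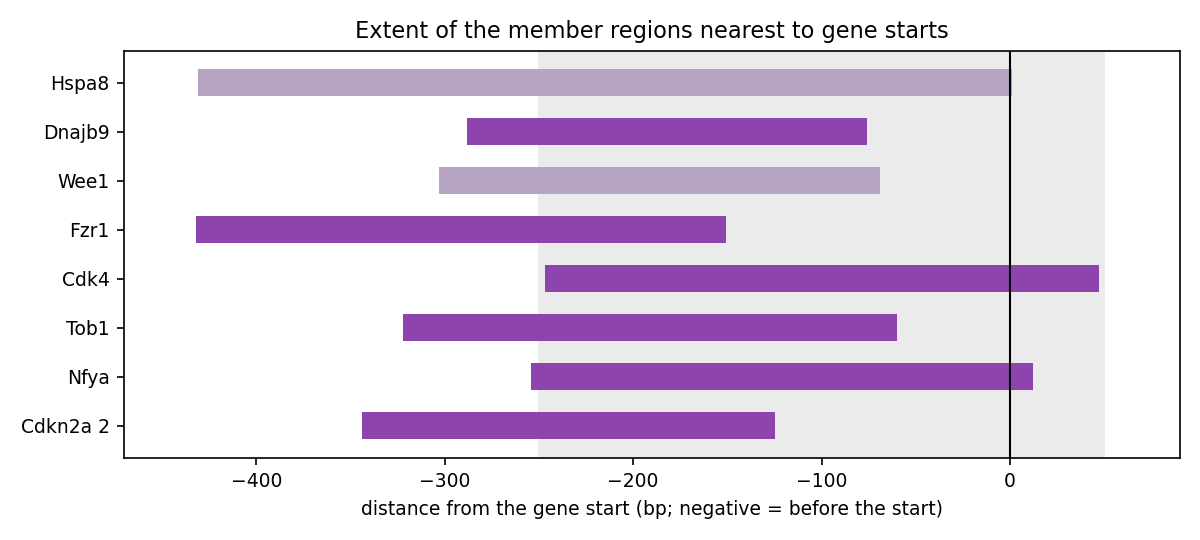
Extent of the 7 regions at gene starts and of the Cdkn2a region nearest to a start, in bp from the nearest listed start (vertical line), with the 300 bp promoter window in grey. The Cdk4 region runs across the window, and the Dnajb9, Fzr1, Tob1 and Cdkn2a regions lie wholly before the start; pale bars (Hspa8, Wee1) are placed from the lower end of the gene span.

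Among the chaperones, Hspa8 encodes the constitutive heat shock cognate protein HSC70. Its region held 57 and 21 reads in sgPrdm12-1 and sgPrdm12-2, against 24 and 44 in sgNTC-1 and sgNTC-2. On the CPM scale these were 20.2 and 13.7 in sgPrdm12, against 35.0 and 56.1 in sgNTC. Both sgPrdm12 libraries lay below both sgNTC libraries, and the log2 fold change was -1.40 (SE 0.40).

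Dnajb9 encodes ERdj4, a J-domain partner of the chaperone BiP in the endoplasmic reticulum. Its region held 32 and 11 reads in sgPrdm12, against 21 and 27 in sgNTC. In CPM this was 9.25 ± 2.95 in sgPrdm12 and 32.5 ± 2.72 in sgNTC (SD, n = 2 each), without overlap of the groups, and the log2 fold change was -1.77 (SE 0.48).

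Wee1 encodes the kinase that holds CDK1 inactive before mitosis, and Fzr1 encodes CDH1, the activator that directs the anaphase-promoting complex in G1. The Wee1 region held 32 and 13 reads in sgPrdm12, against 24 and 30 in sgNTC, and the Fzr1 region 41 and 13 in sgPrdm12, against 32 and 35 in sgNTC. Both regions had close sgNTC libraries, at 36.6 ± 2.33 CPM for Wee1 and 45.6 ± 1.40 for Fzr1. The sgPrdm12 values were lower, at 9.91 ± 2.03 CPM for Wee1 and 11.5 ± 4.29 for Fzr1 (SD, n = 2). The log2 fold changes were -1.85 (SE 0.46) for Wee1 and -1.93 (SE 0.42) for Fzr1.

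Cdk4 encodes the kinase that acts with D-type cyclins in G1. Its region held 37 and 12 reads in sgPrdm12, against 41 and 30 in sgNTC, or 10.5 ± 3.74 CPM in sgPrdm12 and 49.0 ± 15.2 in sgNTC (SD, n = 2). Both sgPrdm12 libraries lay below both sgNTC libraries, at a log2 fold change of -2.16 (SE 0.42).

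Tob1 encodes an antiproliferative protein known to keep T cells quiescent. Its region held 54 and 13 reads in sgPrdm12, against 20 and 38 in sgNTC, or 19.1 and 8.47 CPM in sgPrdm12, against 29.1 and 48.5 in sgNTC. The replicates thus differed in both groups, and the log2 fold change was -1.43 (SE 0.43).

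Nfya encodes the DNA-binding subunit of NF-Y, the factor that reads CCAAT boxes in many cell cycle and chaperone promoters. Its region held 34 and 12 reads in sgPrdm12, against 59 and 28 in sgNTC, or 12.1 and 7.82 CPM in sgPrdm12, against 86.0 and 35.7 in sgNTC. The log2 fold change, -2.55 (SE 0.42), was the lowest of the 13, and the sgNTC libraries differed most at this region among the 7.

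Summed over the 7 regions at gene starts, the libraries held 287 and 95 reads in sgPrdm12, against 221 and 232 in sgNTC. Per 100000 reads of the library total, sgPrdm12-1 had 12.2 (exact 95% interval 10.8 to 13.7) and sgPrdm12-2 had 6.80 (5.51 to 8.32), against 26.2 (22.9 to 29.9) for sgNTC-1 and 21.9 (19.1 to 24.9) for sgNTC-2. The intervals cover counting error only. The 7 regions belong to genes selected on this contrast, so the shares and intervals are a description and no comparison of the groups. The sgPrdm12-2 library was below sgPrdm12-1 at each of the 7 regions, by 0.42 to 1.18 on the log2 scale, while sgNTC-1 was below sgNTC-2 at 4 of the 7.

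Cdkn1a and Cdkn2a encode inhibitors of cyclin-dependent kinases, p21 from Cdkn1a and INK4A together with ARF from Cdkn2a. Cdkn1a had 0 regions at its 2 listed starts. Its region 1 (chromosome 17, 29088200 to 29088487) lay 2492 bp before the outer start, and regions 2, 3 and 4 (29102780 to 29103079, 29103895 to 29104091 and 29104408 to 29104701) lay 2058, 3173 and 3686 bp past the far end of the span. Region 3 was the most covered, with 90 and 50 reads in sgPrdm12, against 21 and 33 in sgNTC, or 31.9 and 32.6 CPM in sgPrdm12, against 30.6 and 42.1 in sgNTC. Region 2 held 61 and 38 reads in sgPrdm12, against 13 and 24 in sgNTC, and region 4 held 71 and 31 in sgPrdm12, against 12 and 18 in sgNTC. Region 1 held 33 and 8 reads in sgPrdm12, against 5 and 12 in sgNTC. The groups overlapped at all 4 Cdkn1a regions in CPM, and the log2 fold changes of regions 1 to 4 were -0.38, -0.11, -0.18 and 0.17 (SE 0.38 to 0.72).

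Cdkn2a had 2 regions inside its span. Region 2 (chromosome 4, 89282317 to 89282536) lay 125 bp before the inner of its 2 listed starts and shared 126 bases with that promoter window. It held 24 and 8 reads in sgPrdm12, against 7 and 22 in sgNTC, and its log2 fold change was -1.45 (SE 0.63). Region 1 (89276701 to 89276913), 5279 bp inside the gene from the inner start, held 29 and 15 reads in sgPrdm12, against 17 and 10 in sgNTC, with a log2 fold change of -0.88 (SE 0.58). At both regions the sgNTC libraries differed from each other by more than the sgPrdm12 libraries did in CPM.

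The farthest region inside the 5 kb limit was region 4 of Cdkn1a. The nearest outside it lay 5648 bp from the Cdkn1a span, with 126 and 79 reads in sgPrdm12 and 36 and 32 in sgNTC, and 5866 bp from the Fzr1 span, with 23 and 6 in sgPrdm12 and 14 and 18 in sgNTC.

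**Figure D2:**
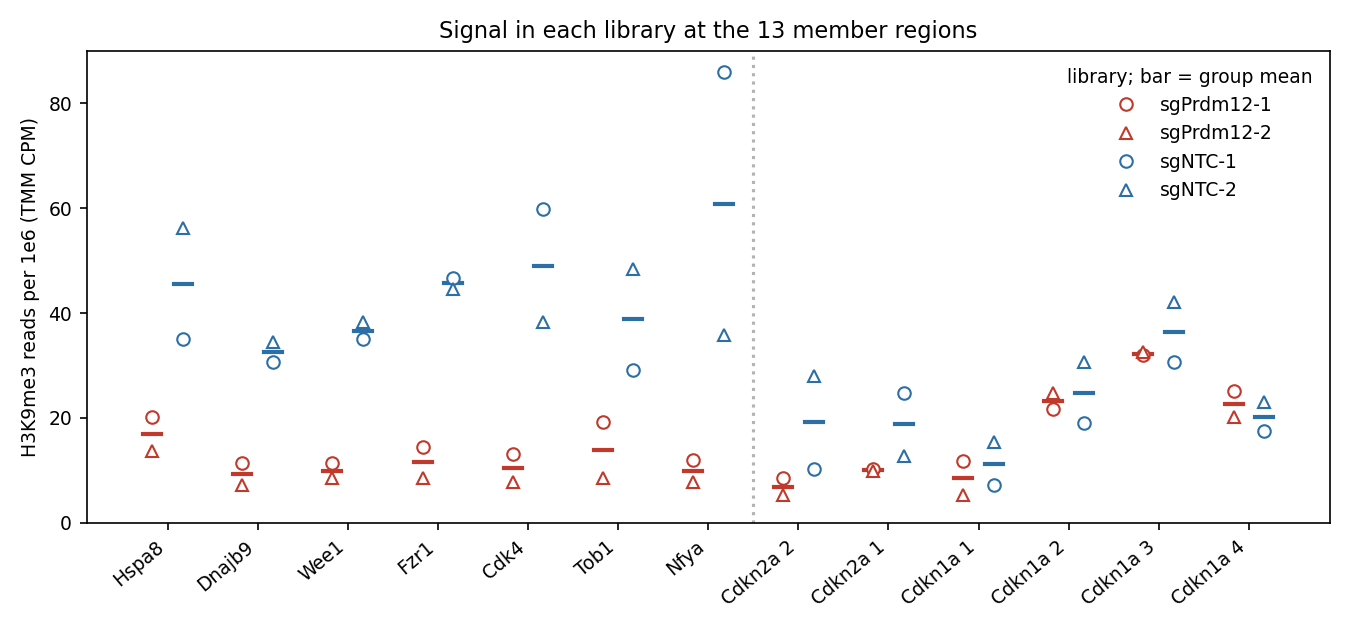
CPM of each library at the 13 regions, with sgPrdm12 in red left of sgNTC in blue, circles for replicate 1, triangles for replicate 2 and a bar for the group mean of 2 libraries. Regions of a gene are numbered by coordinate. At the 7 regions left of the dotted line both sgPrdm12 libraries lie below both sgNTC libraries, while the groups overlap at the 4 Cdkn1a regions.

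In CPM, both sgPrdm12 libraries lay below both sgNTC libraries at 9 of the 13 regions, where 16.4% of all tested regions did, and at 4 of the 13 the region was called lower in the edgeR fit, where 0.377% of all tested regions were. The 4 were Wee1, Fzr1, Cdk4 and Nfya. Because the genes were proposed from this contrast, nothing is read from these counts. Without sgPrdm12-1, 5 of the 7 regions at gene starts were called (Tob1 besides the 4), where 0.602% of tested regions were lower. Without sgPrdm12-2, Cdk4 and Nfya were called, where 0.43% were. Without sgNTC-1, 0 of the 7 were called, where 0.063% of regions were lower, and without sgNTC-2, Cdk4 and Nfya were, where 0.0826% were. Wee1 was not called with DESeq2 size factors (0.257% of tested regions lower), DESeq2's Wald test (0.35%) or limma-voom (0.297%), which called Fzr1, Cdk4 and Nfya. Scaled to total counts, Cdk4 and Nfya were called, where 0.211% were lower, and with the replicate block the 4 were, where 0.457% were.

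The unit of the test decided 3 of the calls. With counts summed per gene, 7 of the 9 genes were called lower, where 1.71% of 7775 gene sums were, although each of these 7 genes has a single region and so the same 4 counts. Hspa8, Dnajb9 and Tob1 were called as gene sums and not as regions, with log2 fold changes of -1.40, -1.77 and -1.44 as sums. The sums of the 4 Cdkn1a and the 2 Cdkn2a regions stood at -0.10 and -1.15 and were not called.

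Within batches, each of the 7 regions at gene starts was lower in sgPrdm12. This follows from the lack of overlap between the groups given above, at genes selected on this contrast, and is no separate support. The log2 difference was between -2.83 (Nfya) and -0.61 (Tob1) in batch 1 and between -2.52 (Tob1) and -2.04 (Hspa8) in batch 2. The regions thus spread widely in batch 1 and little in batch 2. The 4 Cdkn1a regions stood between 0.06 and 0.68 in batch 1 and between -1.55 and -0.18 in batch 2, so their sign differed between batches.

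All tested regions had a median of -0.01 with TMM, against 0.56 when scaled to total counts and 1.00 under the authors' constants, the factors per library behind their deposited signal. With the authors' constants, the 7 regions at gene starts stood between -1.53 and -0.37, and 2, Cdk4 and Nfya, were called lower, where 0.139% of tested regions were. Their deposited signal at Cdk4 was 23.6 and 13.4 in sgPrdm12, against 52.8 and 32.7 in sgNTC, and at Hspa8 it was 36.4 and 23.5 in sgPrdm12, against 30.9 and 47.9 in sgNTC. On that signal the groups did not overlap at 5 of the 7, with Hspa8 and Tob1 as the exceptions, where 0.786% of all tested regions had both sgPrdm12 libraries below both sgNTC libraries. At regions 2, 3 and 4 of Cdkn1a both sgPrdm12 libraries lay above both sgNTC libraries on that signal, as at 66.0% of all tested regions. Region 4 was called higher under those constants, at 1.19, where 20.8% of tested regions were called higher. The 4 Cdkn1a regions and region 1 of Cdkn2a were above 0 on the authors' scale, whereas 4 of these 5 were below 0 with TMM.

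**Figure D3:**
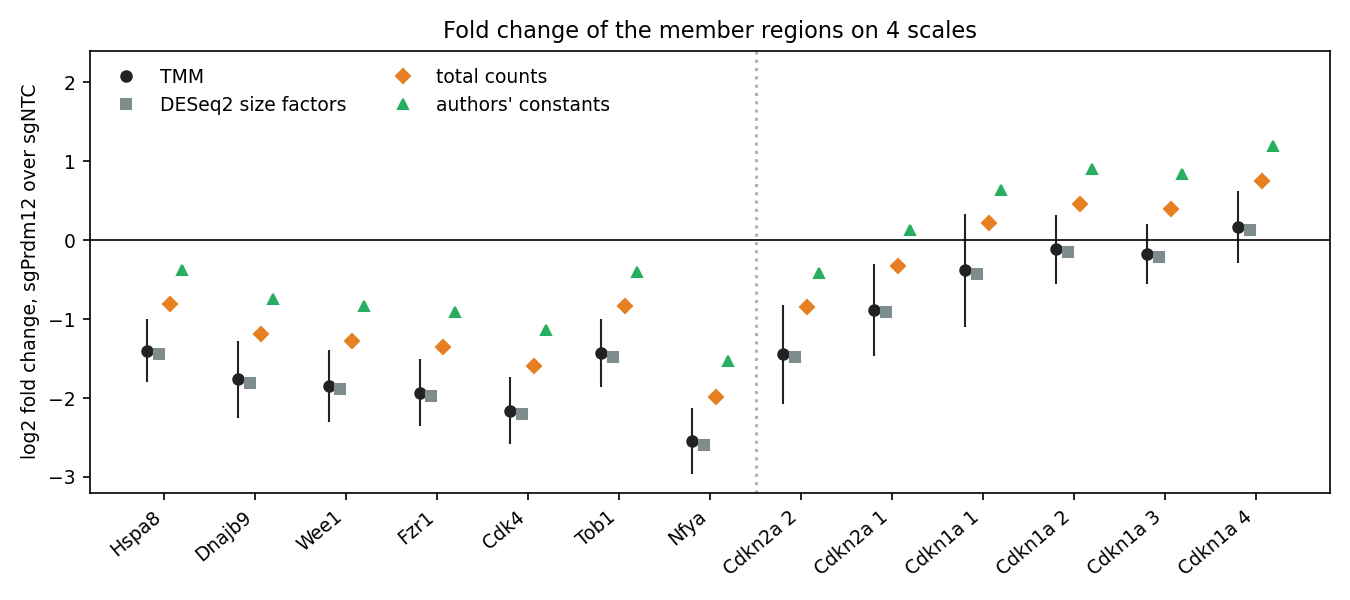
Log2 fold change of the 13 regions on 4 scales, with the standard error drawn for TMM. The 7 regions left of the dotted line lie between -2.55 and -1.40 with TMM and between -1.53 and -0.37 with the authors' constants, and the Cdkn1a regions between -0.38 and 0.17 with TMM and between 0.64 and 1.19 with the authors' constants.

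Regions at the starts of other genes were set beside the 7, in a comparison chosen after the values had been seen. Of the regions that overlapped a promoter window of another protein-coding gene, 468 were tested, and 275 of them lay at CpG-rich promoters. The median log2 fold change was -0.72 at CpG-rich promoters and -0.17 at the other 193 promoter regions, against -0.01 for the 36909 regions away from promoters. Away from promoters means without overlap with a listed window of a protein-coding gene. Regions at starts missing from the promoter table therefore fall in that class. At CpG-rich promoters 10 regions were called lower and 0 higher (edgeR), which is 3.64% lower, against 0.339% away from promoters. An unadjusted edgeR p under 0.05 was reached by 96 of the 275, against 2270 of the 36909 away from promoters. The median at CpG-rich promoters was -0.57 in batch 1 and -0.75 in batch 2. Scaled to total counts it was -0.15 and under the authors' constants 0.29, so its sign depends on the scale. A change of scale is 1 factor per library and shifts all regions nearly alike. The median at CpG-rich promoters therefore had to stay below that of all regions on each scale, which tests nothing.

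Set against the 275 regions at CpG-rich promoters, Nfya had 2 and Fzr1 4 regions below it in log2 fold change, Dnajb9 had 11 and Tob1 30. Cdk4 was not CpG-rich by the criterion, and Hspa8 and Wee1 have no promoter entry, so these 3 were not ranked. The 80 CpG-rich promoter regions with mean counts in the range of the 7, which is 22.8 to 36.5, had a median of -0.92, and 68.8% of them had both sgPrdm12 libraries below both sgNTC libraries. This percentage and these ranks are descriptions, since the 7 were picked for low values.

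**Figure D4:**
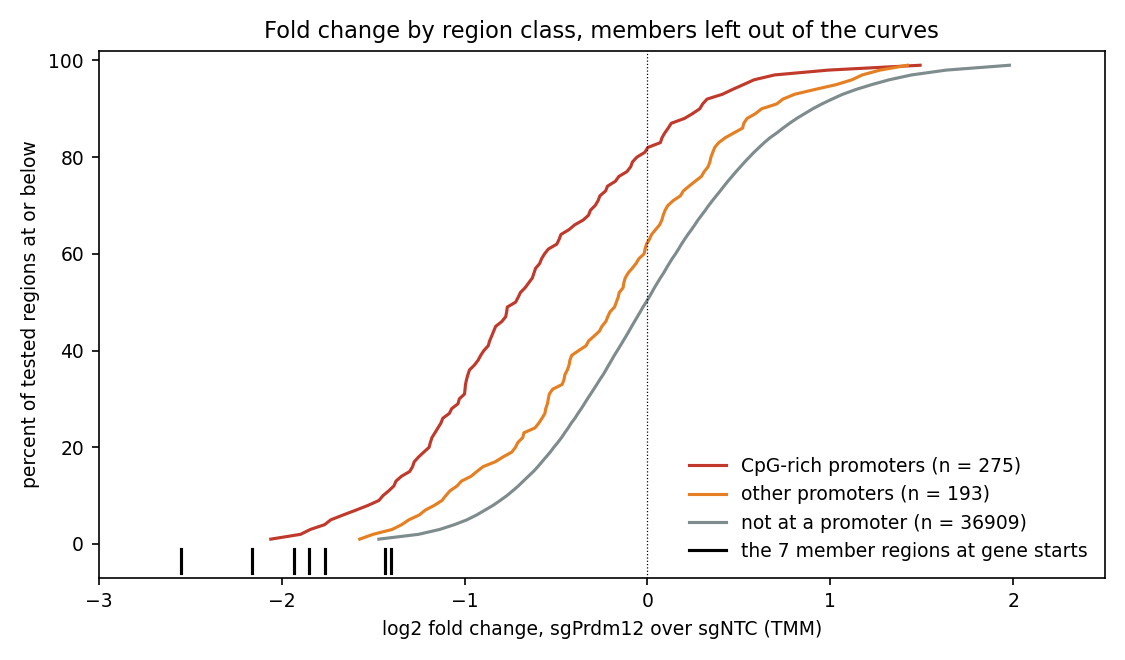
Share of tested regions at or below each log2 fold change (TMM) for regions at CpG-rich promoters, at other promoters and away from promoters, without the 13 regions; ticks at the bottom mark the 7 regions at gene starts, of which 4 are known to lie at CpG-rich promoters. The red curve, with a median of -0.72, lies left of the grey one, with a median of -0.01, and the ticks lie between -2.55 and -1.40.

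Other genes of the same pathways came from lists made with earlier results of these data known. Of 127 further heat shock, chaperone and endoplasmic reticulum stress genes in the gene table, 21 had a region within 5 kb, and 22 regions were tested. Of these, 1 was lower and 0 higher (edgeR, with 6 lower and 0 higher at an unadjusted p under 0.05), at a median of -0.15, where 0.377% of all tested regions were lower and 0.11% higher. Of all 37390 tested regions, 2399 had an unadjusted edgeR p under 0.05 in either direction. DESeq2 and limma-voom also called 1 lower and 0 higher.

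The called region lay at the start of Dnajb1, which encodes an HSP40 J-domain partner of HSP70, on chromosome 8 at 83607848 to 83608272 in a CpG-rich promoter. The region also lies within 5 kb of Gm42029. It held 41 and 13 reads in sgPrdm12, against 27 and 39 in sgNTC, or 11.5 ± 4.29 CPM in sgPrdm12 and 44.6 ± 7.36 in sgNTC (SD, n = 2). Dnajb1 fell by 1.90 (SE 0.42, edgeR adjusted p = 0.00841), and stood at -1.44 in batch 1 and -2.55 in batch 2. Dnajb1 passed in 6 of 11 alternatives (adjusted p from 0.00378 to 0.275) and did not pass with total counts, the authors' constants, or without sgPrdm12-2, sgNTC-1 or sgNTC-2. The next genes by p were Sesn3, a stress-induced sestrin, at -1.60, Manf, a secreted protein of the endoplasmic reticulum stress response, at -1.31, and Hyou1, a chaperone of the endoplasmic reticulum, at -1.36. None of these 3 passed (edgeR adjusted p = 0.283, 0.345 and 0.392). The Manf region also lies within 5 kb of Dock3 and Rbm15b.

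Within that list, the 5 tested regions that overlapped a listed promoter window had a median of -1.19, and the others a median of 0.12. The others include the Manf and Hyou1 regions, at -1.31 and -1.36, which reach a span end but overlap no listed window. The split was made after the values had been seen.

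Of 134 further cell cycle, checkpoint, antiproliferative and NF-Y genes, 15 had a region, and 16 regions were tested. Of these 1 was lower and 0 higher (edgeR, with 3 lower and 1 higher at an unadjusted p under 0.05), at a median of 0.02, and DESeq2 and limma-voom called 1 lower and 0 higher. Over all tested regions edgeR called 0.377% lower and 0.11% higher, and 2399 of 37390 had an unadjusted p under 0.05. The called region lay in Cdk8, which encodes the kinase of the Mediator complex, on chromosome 5 at 146260979 to 146261355 and 30184 bp from the nearer end of the span, so it was not at a promoter. It held 654 and 501 reads in sgPrdm12, against 914 and 655 in sgNTC, far more than any of the 13 regions. Cdk8 fell by 1.96 (SE 0.27, edgeR adjusted p = 1.53e-07) and passed in 9 of 11 alternatives (adjusted p from 3.89e-22 to 0.537), but not without sgNTC-1 or sgNTC-2. Repeats were not annotated here, so whether the reads come from repeated sequence is unknown.

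Mdm4, an inhibitor of p53, stood at 2.38 with 57 and 24 reads in sgPrdm12, against 2 and 3 in sgNTC, and did not pass (edgeR adjusted p = 0.211). Its region also lies within 5 kb of Gm41953. E2f3, a transcription factor of the G1 to S transition, stood at -1.16 and Ccnf, which encodes cyclin F, at -1.14, and both also missed the threshold (edgeR adjusted p = 0.504 and 0.61). The 5 tested regions of the list that overlapped a listed promoter window had a median of -0.32, against 0.16 for the others.

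Of 48 genes used in nearly every cell, 9 had a region and 7 regions were tested, with 0 lower and 0 higher by edgeR (1 and 1 at an unadjusted p under 0.05) and 0 by DESeq2 and limma-voom. Their median was -0.43 (-0.79 at the 2 regions that overlapped a listed promoter window, -0.43 at the others). Of the genes that the naming rule takes from this list, those given here are Ywhaz and Tbp. Ywhaz, which encodes a 14-3-3 protein, stood at 3.46 with 23 and 13 reads in sgPrdm12, against 0 and 1 in sgNTC, and Tbp, the TATA-binding protein gene, at -1.40. The Ywhaz region also lies within 5 kb of Gm41298. Of 20 marker genes of B, myeloid, NK, erythroid and CD4+ cells, 3 had a region and 5 regions were tested, with 0 called by edgeR, DESeq2 or limma-voom and 1 higher at an unadjusted p under 0.05. Beside both lists, edgeR called 0.377% of all tested regions lower and 0.11% higher. An unadjusted edgeR p under 0.05 was reached by 2399 of all 37390, in either direction. At the region of each gene with the smallest edgeR p, Klrb1c stood at 1.00, Cd4 at 0.77 and Adgre1 at -0.60. The summed count of the 5 regions was 367 and 207 in sgPrdm12, against 46 and 84 in sgNTC, and the remaining markers had no region within 5 kb. Their part in the values of the 13 regions was not tested.

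The regions whose profile over the 4 libraries was nearest to the median profile of the 10 member regions with a mean of at least 20 counts were sought among 635 protein-coding genes, by root mean square distance of centred log2 CPM. The nearest were a region shared by Ap2a1, which encodes a subunit of the clathrin adaptor AP-2, and Tsks, then Stard9, Osbp, which encodes an oxysterol-binding protein, and Actl6a, which encodes a subunit of the BAF chromatin remodelling complex. Their distances were 0.088 to 0.106. The region of Ap2a1 and Tsks held 57 and 20 reads in sgPrdm12, against 30 and 37 in sgNTC, and that of Osbp 41 and 15 in sgPrdm12, against 26 and 34 in sgNTC. These 5 genes were chosen for their values in this contrast and so carry no test.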

How the data were processed

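Per the submitters' processing notes, reads were processed with Trimmomatic, Bowtie2, MACS2 and DiffBind; the sources used here give no versions, settings or merging rule. The authors deposited 1 table that holds, for each region, the raw count and a normalized signal of every library. That deposited signal equals the count multiplied by a constant for the library (0.638 and 1.12 for sgPrdm12-1 and sgPrdm12-2, 1.29 and 1.09 for sgNTC-1 and sgNTC-2), of unstated derivation. The notes name GRCm39. The regions were read as GRCm38, since 521 overlapped promoter windows of the GRCm38.p6 RefSeq table as listed, against 155 and 146 with windows moved by -10000 and 10000 bp. Whether starts count from 0 or 1 is unknown. The IgG library was not analysed here.

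Regions were joined to RefSeq gene spans with 5 kb flanks, and to promoter windows of 250 bp before to 50 bp after each listed start. In R 4.3.3 with limma 3.58.1, the main test was the quasi-likelihood test of edgeR 4.0.16 on 37390 regions kept by filterByExpr, with TMM factors, no block, two-sided, and a Benjamini-Hochberg adjusted p threshold of 0.05. It was run on simulated counts in which as many regions were raised as lowered. With that balance, the simulation cannot check the choice of scale. Standard errors (SE) are absolute log2 fold changes divided by the root of the quasi-F statistic. Median counts per region were 32 and 17 in sgPrdm12 and 7 and 9 in sgNTC, which limits precision in sgNTC most. Alternatives were other scales, no filter, a replicate block, DESeq2 1.42.0, limma-voom, each library left out, gene sums and 1 kb flanks. The labels assign replicate numbers to batches and so pair the libraries; across 46409 regions the replicate differences of the groups correlated at -0.012.

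The members and all lists were chosen with earlier results of these data known. The rule for named genes took every member, in each list the genes with a called region and the 3 others with the smallest p, genes that share a member's region, and the 5 genes nearest in profile. A named list gene with several tested regions has its values from the region with the smallest p. Of the genes this rule takes, 1 is not reported here.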

Additional observations from a re-analysis of the deposited data

How the results depend on the processing

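Across 12 alternatives for each of the 13 regions, 35 of 156 log2 fold changes moved by more than the spread between replicates. With the authors' constants 52 regions were lower and 7765 higher, scaling to total counts gave 79 and 936, and DESeq2 size factors gave 11 higher. DESeq2's Wald test called 9 regions higher and limma-voom 1. Leaving out 1 library gave 29 to 223 lower and 6 to 55 higher regions, against 141 and 41 with all libraries. With the replicate block the counts were 171 lower and 45 higher, and the block changed no call named here.

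Over all tested regions, the authors' constants called 0.139% lower and 20.8% higher. Total counts called 0.211% lower and 936 of 37390 higher. In the stress list 0 regions were lower with total counts or the authors' constants, 3 were higher with those constants (at Dnajc1 and Sesn1), and leaving out 1 library gave 0 to 1 lower. In the cell cycle list 1 was higher with total counts (Mdm4) and 2 with the authors' constants (Mdm4 and Ccnb3), and leaving out 1 library gave 0 to 1 lower. Among widely used genes 1 was lower without the filter (Pfn1) and 0 to 1 when 1 library was left out, and 2 were higher with the authors' constants (Ywhaz and Eif4g2). Among markers of other cells 2 regions of Klrb1c were higher with total counts, and under the authors' constants 3 were. The median of CpG-rich promoter regions was -0.15 when scaled to total counts and 0.29 under the authors' constants, and -0.85 to -0.71 when 1 library was left out. The shift of these medians between scales equals a change of 1 factor per library. The causes of the other moves were not tested. The alternatives for the promoter medians were chosen after seeing the data. The median region held 7 and 9 reads in sgNTC, which limits the precision of single regions there.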
